A study of Mus musculus with 12 samples.

Results

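The UDP-glucuronosyltransferase (Ugt) and cytosolic sulfotransferase (Sult) genes encode the main conjugating enzymes of liver. They were taken as every gene symbol that begins with Ugt1a, Ugt2a, Ugt2b or Ugt3a and a number, or with Sult and a number. Of 31253 gene symbols, 37 fitted these names, 19 of them Ugt and 18 Sult. Of the 37, 24 exceeded 1 TPM (a transcript's share of a library's RNA, corrected for its length) in at least 3 of 12 libraries, among 12120 genes that did so. The 24 were 6 Ugt1a, 9 Ugt2 and 2 Ugt3a genes, and 7 Sult genes. The deposited values held no entry below 1, so a value of 1 was read as 1 or less.

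RNA sequencing was done on whole livers of male C57BL6 mice in 4 groups of 3 libraries. S302A_DEN and S302A_Ctrl livers carried the CUGBP1 s302a knock-in, an allele named for a serine changed to alanine in the RNA-binding protein CUGBP1 (gene Celf1), and WT_DEN and WT_Ctrl livers were wild type. The 2 DEN groups had received the liver carcinogen diethylnitrosamine (DEN) once they were 3 weeks old, at a dose of 50 µg per g, and the 2 Ctrl groups had received no treatment. Livers were collected 30 to 38 weeks after that age, at 33 to 41 weeks of age, and the age of each library is not given. The labels do not say whether each library is a separate animal or whether the knock-in is homozygous, and the p-values below reflect the scatter among libraries, whatever its source. Since an amino-acid change leaves TPM untouched, these values cannot check the genotype labels. TPM keeps no depth, so how many reads stand behind a value is unknown.

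Ugt enzymes sit in the endoplasmic reticulum and move glucuronic acid from UDP-glucuronate onto bilirubin, steroids, bile acids, drugs and dietary phenols. Sult enzymes sit in the cytosol and move sulfate from the donor PAPS onto phenols, estrogens, thyroid hormones, hydroxysteroids and bile acids. Both reactions make their substrates water-soluble and ready for export into bile or blood. Ugt2 enzymes handle mainly steroids and bile acids, Ugt1a1 is the bilirubin enzyme, and Ugt1a6a acts on small planar phenols.

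The Ugt1a genes are one locus of the GRCm38 build (GENCODE M21) with many first exons, each spliced to the same later exons. The 7 Ugt1a genes with a 5-exon coding transcript shared exon 2 at chr1:88215044-88215175 on the plus strand, and the first 1311 bases after exon 1 were identical in all 7. The exon junctions are shown because only reads from the lower-case side can tell the genes apart. Lower case is the end of exon 1 and capitals are the start of the shared exon 2.
Ugt1a1: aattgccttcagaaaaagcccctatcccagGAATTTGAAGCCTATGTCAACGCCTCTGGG
Ugt1a2: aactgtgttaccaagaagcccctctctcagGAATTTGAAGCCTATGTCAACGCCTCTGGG
Ugt1a5: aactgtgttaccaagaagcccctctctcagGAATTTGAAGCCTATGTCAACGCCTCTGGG
Ugt1a6a: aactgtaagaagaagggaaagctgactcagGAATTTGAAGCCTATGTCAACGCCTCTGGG
Ugt1a9: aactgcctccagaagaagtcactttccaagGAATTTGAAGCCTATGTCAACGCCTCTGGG
Ugt1a10: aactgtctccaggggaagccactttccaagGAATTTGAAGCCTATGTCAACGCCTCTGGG
The end of exon 1 also has the same letters in Ugt1a2 and Ugt1a5. Of all runs of 31 bases in the transcripts, 18.7% in Ugt1a1, 32.2% in Ugt1a9 and 47.0% in Ugt1a6a occurred in no other gene. Single Ugt1a values are therefore uncertain, and the sum over the 6 genes is given beside them.

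The Ugt2 genes lie side by side on chromosome 5, from 86889767 to 87490871, with Sult1b1, Sult1d1 and Sult1e1 just beyond them, from 87513339 to 87591594. Ugt2b5, Ugt2b37 and Ugt2b38 are near copies: Ugt2b38 shared 44.9% of the 31-base runs of Ugt2b5, and 43.6% of the Ugt2b5 runs occurred in no other gene. Beyond this trio, from 88.0% to 99.2% of the runs of Ugt2b1, Ugt2a3, Ugt2b34, Ugt2b35 and Ugt2b36 were their own. The 250 bases before the start of each gene of the trio are shown (RefSeq, GRCm38.p6, minus strand) because Ugt2b5 is the Ugt gene that passed the test below. The trio was chosen after its values were seen. Capitals mark the longest run, of 62 bases, that all 3 hold.
Ugt2b5, chr5:87140341-87140590: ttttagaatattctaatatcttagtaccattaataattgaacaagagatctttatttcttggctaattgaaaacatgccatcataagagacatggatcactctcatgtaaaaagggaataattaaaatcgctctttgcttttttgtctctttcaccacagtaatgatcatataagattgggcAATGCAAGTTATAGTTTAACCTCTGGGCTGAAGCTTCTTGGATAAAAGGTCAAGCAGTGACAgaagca
Ugt2b37, chr5:87254789-87255038: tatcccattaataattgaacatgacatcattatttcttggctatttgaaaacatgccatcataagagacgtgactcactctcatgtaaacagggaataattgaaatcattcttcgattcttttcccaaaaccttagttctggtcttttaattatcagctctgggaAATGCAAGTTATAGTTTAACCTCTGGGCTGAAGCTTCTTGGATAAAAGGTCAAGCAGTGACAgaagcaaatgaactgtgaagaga
Ugt2b38, chr5:87424204-87424453: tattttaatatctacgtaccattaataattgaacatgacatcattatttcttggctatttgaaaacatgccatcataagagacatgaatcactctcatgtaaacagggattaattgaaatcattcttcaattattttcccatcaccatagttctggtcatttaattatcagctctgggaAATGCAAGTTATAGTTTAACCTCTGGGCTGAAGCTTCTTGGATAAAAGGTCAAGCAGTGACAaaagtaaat
The 3 pairs of these windows were 79.6% to 89.6% identical, against 48.4% to 64.4% in the 42 other pairs of Ugt2 windows. Promoter windows were found for 32 of the 37 genes.

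One library stood apart. S302A_DEN replicate 3 had Spearman correlations of 0.877 to 0.913 with the other libraries, against 0.937 to 0.980 for the 55 pairs without it, and 10539 of 12120 genes lay above both other S302A_DEN replicates in it. Its summed liver tumour and fetal liver markers reached 637 TPM, against 14.1 and 17.2 TPM in the other S302A_DEN libraries and 10.4 to 56.7 TPM in the other groups. Macrophage markers summed to 644 TPM in it, against 85.6 and 231 TPM in the other S302A_DEN libraries. Cholangiocyte markers, of which 3 of 8 passed the filter and 3 stood at 1 in all libraries, summed to 69.6 to 156 TPM in S302A_DEN and to 24.6 to 43.6 TPM in the other groups. All 11 hepatocyte markers passed the filter, and they summed to 59043 to 74152 TPM in S302A_DEN, 65971 to 81911 TPM in S302A_Ctrl, 94384 to 108316 TPM in WT_DEN and 60658 to 88590 TPM in WT_Ctrl. The part of these marker differences in the results below was not tested. In whole liver, fewer cells of a type and less RNA per cell cannot be told apart. Results that rest on S302A_DEN replicate 3 are given with and without it.

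Ugt genes stood above Sult genes in every library. The 17 Ugt genes summed to 1675 to 3028 TPM, which was 0.165% to 0.298% of all TPM. The 7 Sult genes summed to 249.9 to 721 TPM, or 0.0246% to 0.0710%. Per library the mean log2(TPM + 1) of the Ugt genes exceeded that of the Sult genes by 1.42 ± 0.185 in S302A_DEN and 1.57 ± 0.245 in S302A_Ctrl, and by 0.885 ± 0.427 in WT_DEN and 1.76 ± 0.209 in WT_Ctrl (SD, n = 3 each). The smallest gaps, 0.499 and 0.812, were in WT_DEN replicates 3 and 1. Averaged over 12 libraries, Ugt2b5 (647 TPM), Ugt2b36 (559 TPM) and Ugt2b1 (294 TPM) led the Ugt genes. Sult1a1 (276 TPM), Sult1d1 (68.4 TPM) and Sult5a1 (25.3 TPM) led the 7 Sult genes. These Sult values leave out 2810007J24Rik, a sulfotransferase gene outside the naming rule that is described under Other observations. Its group means were 217 to 569 TPM.

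**Figure D1:**
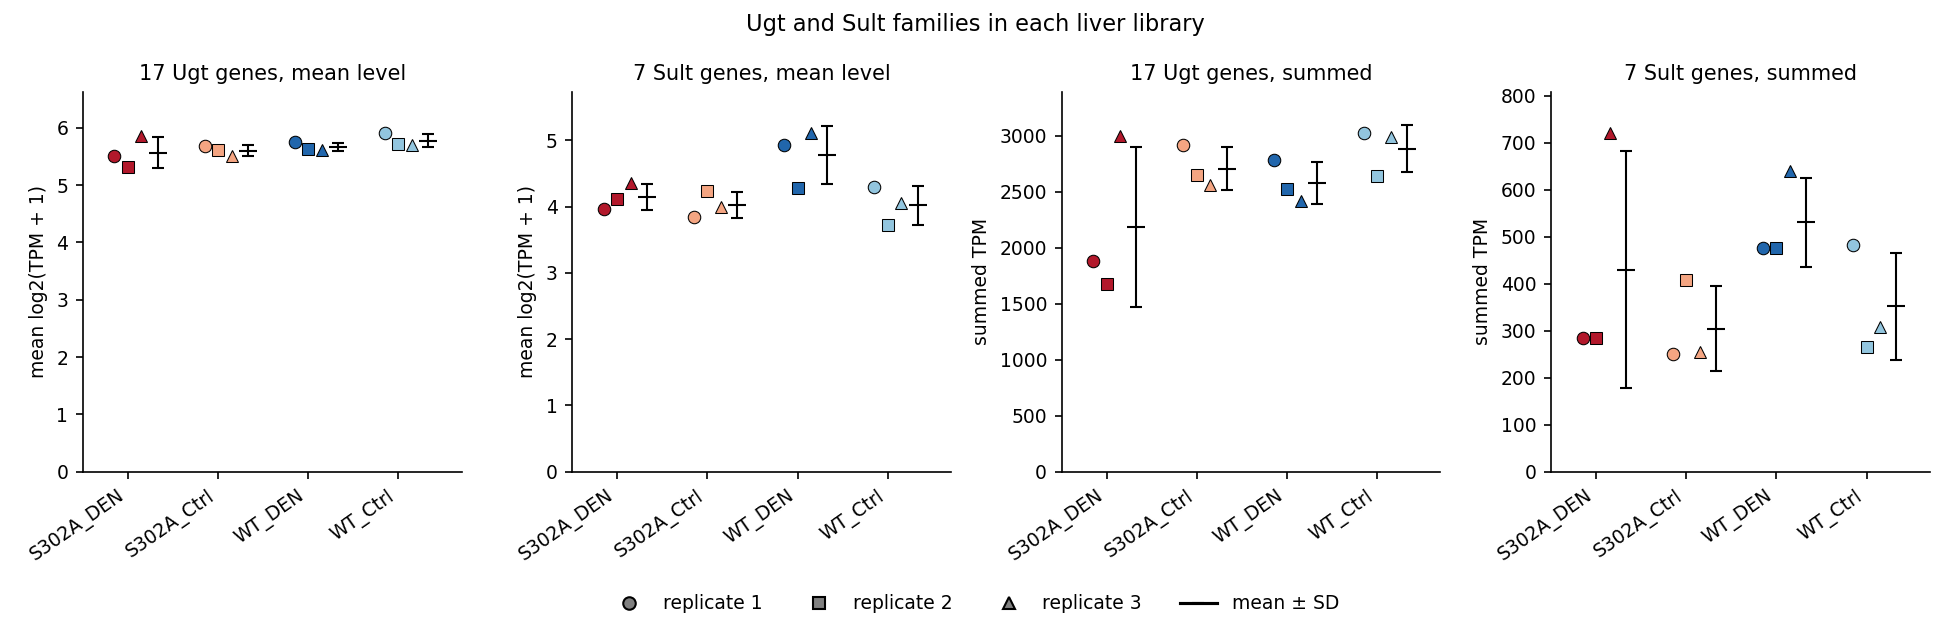
The 17 Ugt and 7 Sult genes in each liver library, as the mean of log2(TPM + 1) (left panels) and as summed TPM (right panels), with symbols for replicates and bars for mean ± SD of 3 libraries. S302A_DEN replicate 3 has the highest summed Sult level, 721 TPM, and replicates 1 and 2 of that group have the lowest summed Ugt levels, 1878 and 1675 TPM.

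Of the 13 genes that did not pass the filter, 10 stood at 1 in all 12 libraries. They were Ugt2a2 and 9 Sult genes: Sult1c1, Sult2a1, Sult2a3, Sult2a4, Sult2a5, Sult2a6, Sult3a1, Sult4a1 and Sult6b1. Several Sult2a genes, which encode hydroxysteroid and bile acid sulfotransferases, are known from mice to be expressed mainly in female liver. Ugt1a7c stood at 6.39 TPM in S302A_DEN replicate 3 and at 1 in the other 11 libraries. Sult2a2 reached 1.63 TPM in WT_DEN replicate 3 alone, and Sult2b1 reached 1.32 TPM in S302A_DEN replicate 3 alone. Of the 24 genes that passed, 19 exceeded 1 in all 12 libraries, and the other 5 were Ugt1a10, Ugt2a1, Ugt2b37, Ugt2b38 and Sult1e1.

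Differences were tested with limma on log2(TPM + 1) over all 12120 genes, two-sided, with Benjamini-Hochberg adjustment and a threshold of 0.05. After DEN in knock-in liver 1 of the 24 genes fell, Ugt2b5, while 0.619% of all genes tested passed in either direction and 0.198% fell. Over all genes these calls were 51 higher and 24 lower, and 306 higher and 345 lower under median-of-ratios scaling. Between S302A_DEN and WT_DEN 1 of the 24 passed, Sult2a7, which was lower in S302A_DEN, while 0.38% of all genes passed and 0.272% were lower. These 2 comparisons share the S302A_DEN libraries. In WT_DEN against WT_Ctrl 0 of the 24 passed, as 0.132% of all genes did. In S302A_Ctrl against WT_Ctrl 0 passed (0.033% of all genes), and for the difference between the genotypes in their DEN effect 0 passed (0.0413% of all genes). At an unadjusted p under 0.05 stood 7 of the 24 for DEN in the knock-in (16.4% of all genes), 7 for DEN in wild type (8.26%), 7 for S302A_DEN against WT_DEN (7.83%), 1 for S302A_Ctrl against WT_Ctrl (1.48%) and 4 for the difference in DEN effect (5.06%).

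Ugt2b5 was the most abundant gene of both families and was lower in both DEN groups. It stood at 449, 392 and 367 TPM in S302A_DEN, against 921, 668 and 845 TPM in S302A_Ctrl, and at 604, 589 and 494 TPM in WT_DEN, against 797, 773 and 868 TPM in WT_Ctrl. In each genotype every DEN library lay below every untreated one. In the knock-in the mean was 403 ± 41.9 TPM in S302A_DEN, 2.02-fold lower than the 811 ± 130.1 TPM of S302A_Ctrl (SD, n = 3 each). That log2 difference was -1.001 ± 0.18 (SE, limma adjusted p = 0.0319). In wild type it was -0.53 ± 0.18 and did not pass (limma adjusted p = 0.411). The test of the difference between the genotypes gave -0.47 ± 0.26 (limma adjusted p = 0.975), and S302A_Ctrl and WT_Ctrl differed by -0.01 ± 0.18.

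The Ugt2b5 call held in 11 of 21 alternatives, with limma adjusted p from 0.0147 to 0.275. It ended with the libraries of the comparison alone (0.275), with no filter (0.0525), and without S302A_DEN replicate 1 (0.0504), S302A_Ctrl replicates 1, 2 and 3 (0.197, 0.0513 and 0.156), WT_DEN replicates 2 and 3 (0.0694 and 0.0544) or WT_Ctrl replicates 1 and 3 (0.0512 and 0.0549). Without S302A_DEN replicate 3 it was -0.94 (adjusted p = 0.0187), and under median-of-ratios scaling it was -1.32 (adjusted p = 0.0295).

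Its near copies were low and uneven. Ugt2b38 stood at 13.8, 11.2 and 1 TPM in S302A_DEN, against 6.84, 1 and 6.34 TPM in S302A_Ctrl, and at 1.31, 4.74 and 2.97 TPM in WT_DEN, against 2.64, 13.7 and 3.43 TPM in WT_Ctrl. Ugt2b37 stood at 4.36, 11.2 and 1 TPM in S302A_DEN, against 1, 1.50 and 1 TPM in S302A_Ctrl, and at 1, 1 and 1.44 TPM in WT_DEN, against 1, 5.78 and 1 TPM in WT_Ctrl. Both were highest in S302A_DEN replicates 1 and 2 and WT_Ctrl replicate 2 and stood at 1 in S302A_DEN replicate 3, and the groups of both genes overlapped in all 4 comparisons of 2 groups. Because the trio shares sequence, its summed level was also taken, which was 417 ± 49.0 TPM in S302A_DEN, 817 ± 133 TPM in S302A_Ctrl, 567 ± 59.1 TPM in WT_DEN and 822 ± 43.7 TPM in WT_Ctrl (SD, n = 3 each). Almost all of the summed level was Ugt2b5.

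Ugt2b36, the second most abundant gene, stood at 398, 397 and 531 TPM in S302A_DEN, against 621, 607 and 598 TPM in S302A_Ctrl, with no overlap. Its log2 difference of -0.47 ± 0.19 did not pass (limma adjusted p = 0.269), but it passed under median-of-ratios scaling (-0.79, adjusted p = 0.0316). In wild type it stood at 675, 487 and 491 TPM in WT_DEN, against 642, 571 and 685 TPM in WT_Ctrl, and these overlapped.

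Ugt2b35 stood at 75.1, 52.6 and 47.5 TPM in WT_DEN, against 126.9, 112 and 134 TPM in WT_Ctrl. WT_DEN lay wholly below, at a log2 difference of -1.10 ± 0.46 (limma adjusted p = 0.543). In the knock-in it stood at 57.9, 52.6 and 262 TPM in S302A_DEN, against 116.5, 118 and 101.4 TPM in S302A_Ctrl, so S302A_DEN replicate 3 lay above and the other 2 lay below every untreated library. Without S302A_DEN replicate 3 both DEN differences passed, at -1.01 (adjusted p = 0.0221) in the knock-in and -1.10 (adjusted p = 0.0152) in wild type, where 2.43% and 2.17% of all genes passed.

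Ugt2b1 was 267 ± 29.9 TPM in WT_DEN and 359 ± 28.3 TPM in WT_Ctrl (SD, n = 3 each). Its libraries held 233, 282 and 287 TPM in WT_DEN, against 343, 342 and 391 TPM in WT_Ctrl, and the groups did not overlap. The log2 difference was -0.43 ± 0.17 (limma adjusted p = 0.510). In the knock-in the values overlapped, at 285, 235 and 283 TPM in S302A_DEN, against 292, 311 and 249 TPM in S302A_Ctrl. Untreated knock-in liver lay wholly below untreated wild type for this gene (-0.34 ± 0.17, limma adjusted p = 1). It was the only one of the 24 for which that held, while 5.27% of all genes tested lay wholly below.

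Ugt2a3 stood at 117, 105.3 and 155 TPM in S302A_DEN, against 190.5, 197 and 139 TPM in S302A_Ctrl, and at 196, 189 and 194 TPM in WT_DEN, against 196, 128 and 180.2 TPM in WT_Ctrl. All S302A_DEN libraries lay below all WT_DEN libraries (-0.63 ± 0.22, limma adjusted p = 0.359). The DEN effect differed between the genotypes by -0.70 ± 0.31 (limma adjusted p = 0.935). Ugt2a1, a gene near the floor with 68.7% of its 31-base runs shared with Ugt2a2, stood at 1.47, 1 and 1 TPM in WT_DEN, against 4.64, 2.55 and 2.84 TPM in WT_Ctrl (-0.99 ± 0.28, limma adjusted p = 0.268). It stood at 1, 2.16 and 1 TPM in S302A_DEN, against 2.89, 1.35 and 1 TPM in S302A_Ctrl. Ugt2b34 ranged from 81.9 to 170.2 TPM in 11 libraries and reached 358 TPM in S302A_DEN replicate 3. In all, 8 of 9 Ugt2 genes were lower in WT_DEN than in WT_Ctrl, with a median log2 difference of -0.49, while 70.4% of all genes tested were higher (median 0.13). In the knock-in 6 of 9 were lower (median -0.18, against 0.27 for all genes).

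**Figure D2:**
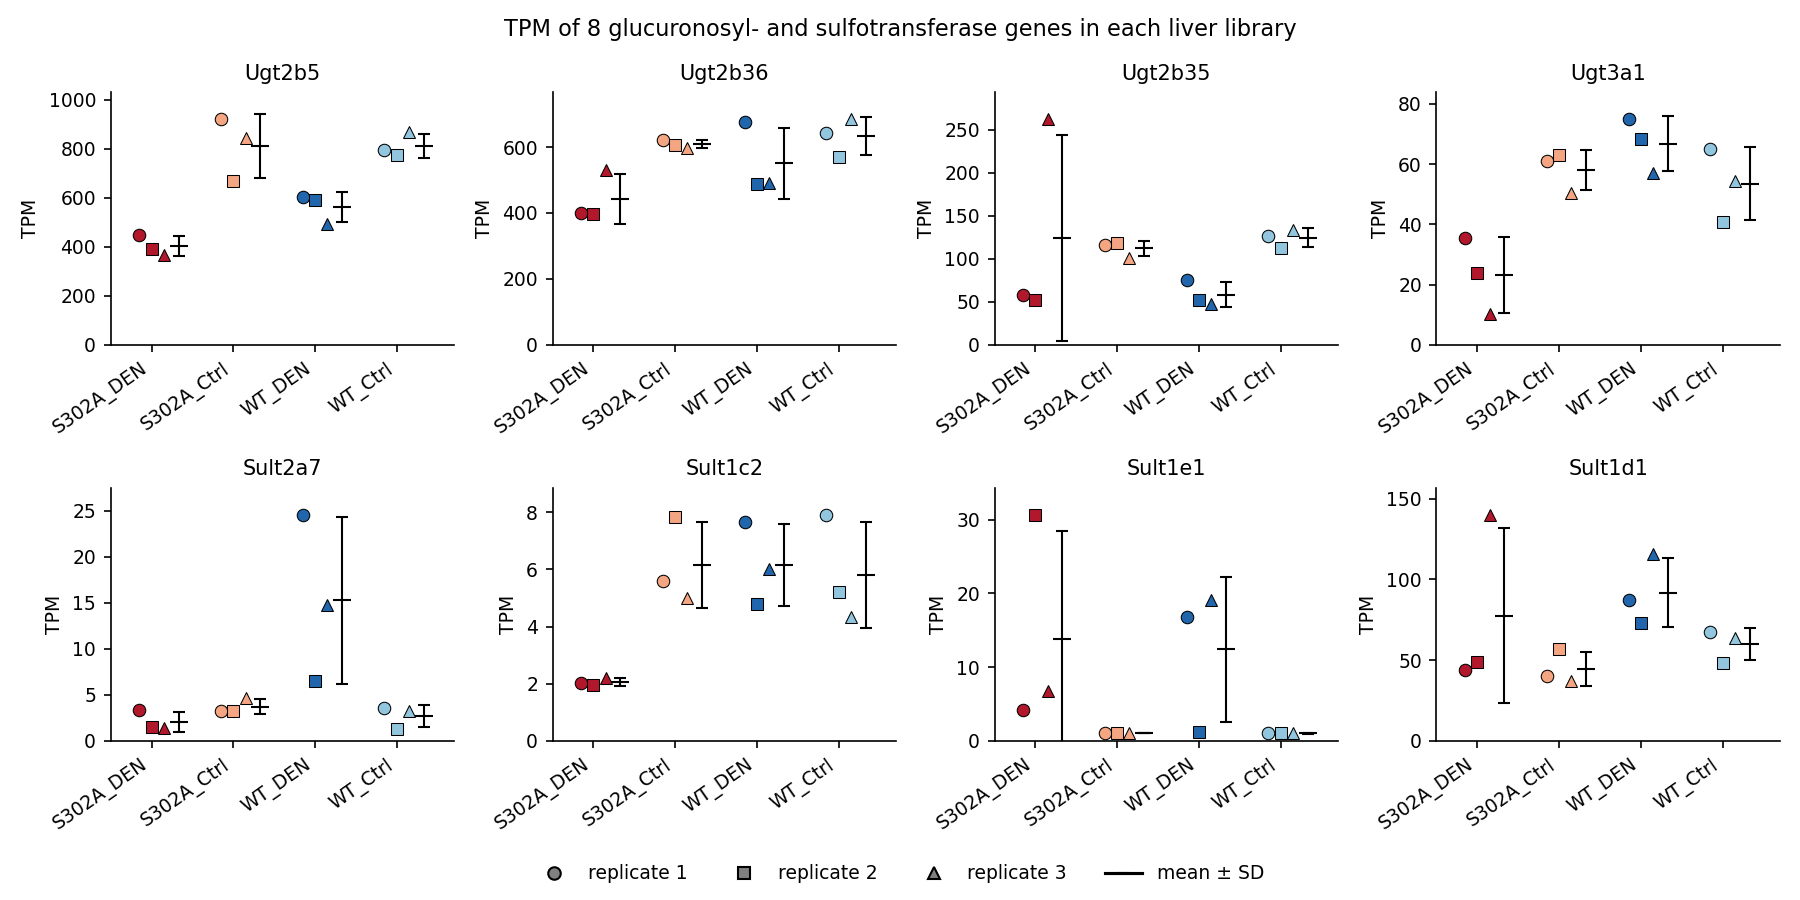
TPM of 4 Ugt and 4 Sult genes in each liver library, with groups on the horizontal axis, symbols for replicates and bars for mean ± SD of 3 libraries. Bars that would reach below 0 are cut at the axis. Ugt2b5 lies lower in both DEN groups than in their untreated groups, Sult1c2 lies at 1.94 to 2.21 TPM in S302A_DEN and at 4.32 TPM or more elsewhere, and Sult2a7 is highest in WT_DEN.

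The Ugt1a locus as a whole showed no difference that passed with all libraries. Its 6 genes summed to 275, 242 and 836 TPM in S302A_DEN, against 384, 346 and 297 TPM in S302A_Ctrl, and to 565, 510.2 and 529 TPM in WT_DEN, against 505, 337 and 363 TPM in WT_Ctrl. S302A_DEN replicate 3 held the highest sum of all 12 libraries and the other 2 of its group the lowest. WT_DEN lay wholly above WT_Ctrl. The 6 genes and Ugt1a7c, which did not pass the filter, were also summed and fitted as 1 entry. That choice was made after the data were seen. This fitted sum differed by 0.17 ± 0.37 after DEN in the knock-in and 0.43 ± 0.37 in wild type, and by -0.48 ± 0.37 between S302A_DEN and WT_DEN (limma adjusted p = 0.806, 0.878 and 0.853). Without S302A_DEN replicate 3 the last difference was -1.04 and passed (adjusted p = 0.0122), and the knock-in DEN difference turned to -0.40 (adjusted p = 0.298).

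How the sum was divided among the Ugt1a genes varied within groups. Ugt1a9, which encodes an enzyme of phenol glucuronidation, held 22.3%, 53.3% and 38.0% of the sum in S302A_DEN, against 53.9%, 5.55% and 33.8% in S302A_Ctrl, and 62.9%, 61.6% and 60.7% in WT_DEN, against 51.5%, 48.2% and 41.0% in WT_Ctrl. In TPM it stood at 61.3, 129 and 318 in S302A_DEN, against 207, 19.2 and 100.5 in S302A_Ctrl, and at 356, 314 and 321 in WT_DEN, against 260.4, 162 and 149 in WT_Ctrl. WT_DEN was higher than WT_Ctrl in every library (0.83 ± 0.71, limma adjusted p = 0.877). Its 3 values in WT_DEN lay close together, while the knock-in values were widely spread. S302A_Ctrl replicate 2, with the lowest Ugt1a9 level, held the highest Ugt1a1 level.

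Ugt1a1, which conjugates bilirubin, stood at 102, 48.6 and 168 TPM in S302A_DEN, against 95.7, 179.9 and 105.2 TPM in S302A_Ctrl, and at 102, 109.9 and 111 TPM in WT_DEN, against 128, 102 and 124 TPM in WT_Ctrl. None of the 4 comparisons of 2 groups separated its libraries, and its log2 differences ranged from -0.37 to 0.05. Ugt1a2 and Ugt1a6a stood at 23.9 to 60.5 TPM and 35.5 to 55.3 TPM in 11 libraries and reached 160.3 and 168 TPM in S302A_DEN replicate 3. Ugt1a5 ranged from 3.72 to 29.5 TPM and overlapped between all groups compared. Ugt1a10 did not exceed 3.29 TPM in any library. It stood at 1, 1.42 and 1.11 TPM in S302A_DEN and at 3.29, 1.76 and 2.03 TPM in WT_DEN, a difference of -0.60 ± 0.19 that did not pass (limma adjusted p = 0.299).

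**Figure D3:**
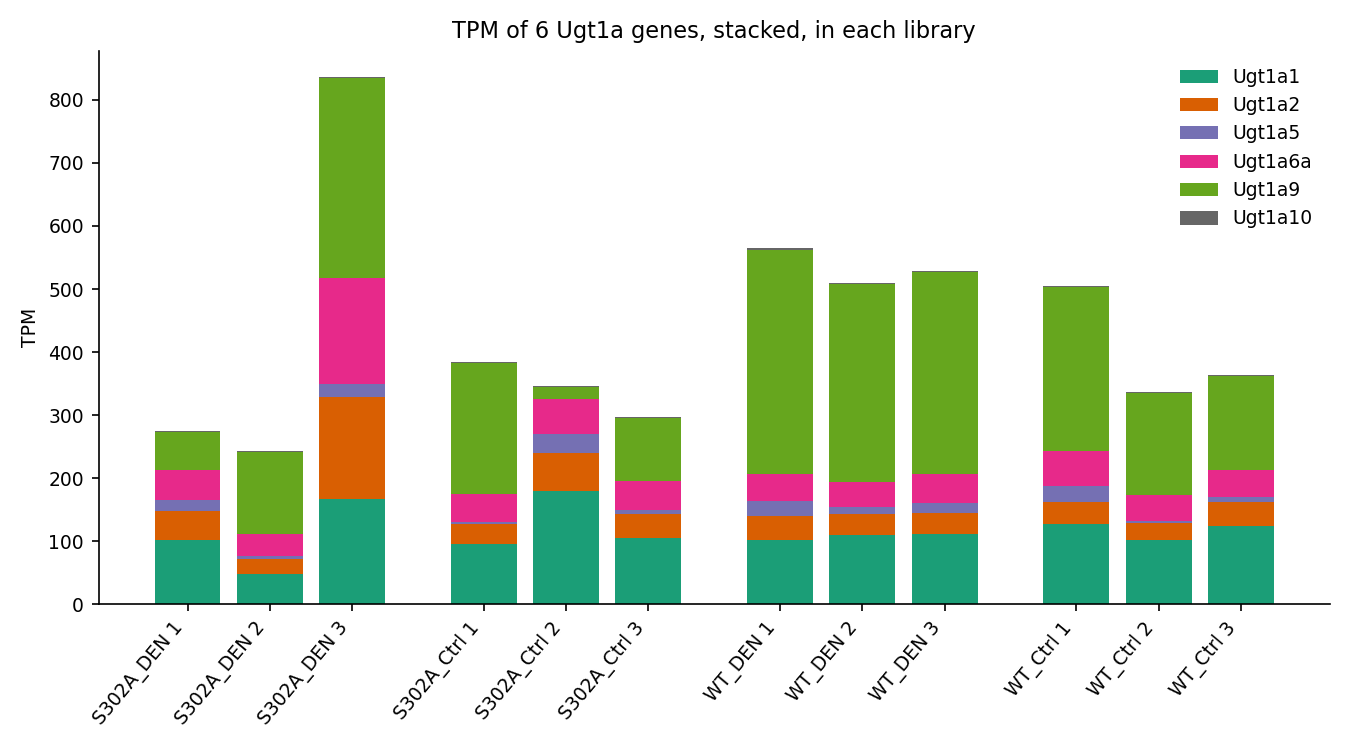
Stacked TPM of the 6 Ugt1a genes in each library, which is named by group and replicate on the horizontal axis. The stack is tallest in S302A_DEN replicate 3, at 836 TPM, and the Ugt1a9 layer is thinnest in S302A_Ctrl replicate 2, at 5.55% of the stack.

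The Ugt3a pair on chromosome 15 differs from the other Ugt genes in donor: in humans UGT3A1 uses UDP-N-acetylglucosamine. Ugt3a1 (9276888 to 9315032, plus strand) stood at 35.6, 23.97 and 10.2 TPM in S302A_DEN, against 60.9, 62.9 and 50.3 TPM in S302A_Ctrl, and at 75.0, 68.3 and 57.0 TPM in WT_DEN, against 65.0, 40.8 and 54.5 TPM in WT_Ctrl. All 3 S302A_DEN libraries lay below the other 9 libraries. The mean was 23.2 ± 12.7 TPM in S302A_DEN, 58.0 ± 6.79 TPM in S302A_Ctrl and 66.7 ± 9.10 TPM in WT_DEN (SD, n = 3 each). S302A_DEN differed from S302A_Ctrl by -1.44 ± 0.35 (limma adjusted p = 0.0840) and from WT_DEN by -1.63 ± 0.35 (limma adjusted p = 0.0765), neither of which passed. The DEN effect differed between the genotypes by -1.77 ± 0.50 (limma adjusted p = 0.481). Against WT_DEN it passed without S302A_DEN replicate 1 (adjusted p = 0.0264) or replicate 3 (-1.15, adjusted p = 0.0178), and against S302A_Ctrl without S302A_DEN replicate 1 (adjusted p = 0.0345).

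Ugt3a2 varied less, at 122.8, 120.5 and 193 TPM in S302A_DEN, against 168, 177 and 138 TPM in S302A_Ctrl, and at 209, 192 and 171 TPM in WT_DEN, against 174, 154 and 158 TPM in WT_Ctrl. Its groups overlapped in each comparison. Under median-of-ratios scaling it passed as lower in S302A_DEN than in S302A_Ctrl (-0.49, adjusted p = 0.0454), and without S302A_DEN replicate 3 it passed as lower in S302A_DEN than in WT_DEN (-0.64, adjusted p = 0.0278).

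Sult2a7, a hydroxysteroid sulfotransferase gene on chromosome 7 (14465051 to 14494230, minus strand), stood highest in DEN-treated wild-type liver. It stood at 3.34, 1.54 and 1.38 TPM in S302A_DEN, against 3.25, 3.26 and 4.63 TPM in S302A_Ctrl, and at 24.5, 6.45 and 14.8 TPM in WT_DEN, against 3.57, 1.28 and 3.21 TPM in WT_Ctrl. Each WT_DEN library lay above the other 9 libraries. The S302A_DEN mean of 2.09 ± 1.09 TPM was 7.31-fold lower than the WT_DEN mean of 15.3 ± 9.05 TPM (SD, n = 3 each). That log2 difference was -2.28 ± 0.42 (limma adjusted p = 0.0461). The DEN difference in wild type, 2.03 ± 0.42, did not pass (limma adjusted p = 0.128), nor did that in the knock-in, -0.65 ± 0.42 (limma adjusted p = 0.415). The difference between the 2 DEN effects was -2.68 ± 0.60 (limma adjusted p = 0.273).

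The Sult2a7 call held in 11 of 21 alternatives, with limma adjusted p from 0.0167 to 0.329. It ended with no filter (0.329), with the libraries of the comparison alone (0.214), and without S302A_DEN replicate 2 (0.124), S302A_Ctrl replicates 1, 2 and 3 (0.0773, 0.0638 and 0.0723), WT_DEN replicates 1 and 3 (0.121 and 0.205) or WT_Ctrl replicates 1 and 3 (0.0543 and 0.0790). Without S302A_DEN replicate 3 it was -2.12 (adjusted p = 0.0272), and the wild-type DEN difference then passed (adjusted p = 0.0386). Almost none of its sequence is shared, since 99.7% of its 31-base runs occurred in no other gene.

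Sult1c2, on chromosome 17 (53829637 to 53846339, minus strand), was lowest in DEN-treated knock-in liver. It stood at 2.03, 1.94 and 2.21 TPM in S302A_DEN, against 5.59, 7.84 and 4.99 TPM in S302A_Ctrl, and at 7.65, 4.78 and 6.03 TPM in WT_DEN, against 7.90, 5.21 and 4.32 TPM in WT_Ctrl. The 3 S302A_DEN values, replicate 3 included, lay close together and below the other 9 libraries. S302A_DEN differed from S302A_Ctrl by -1.20 ± 0.25 (limma adjusted p = 0.0587) and from WT_DEN by -1.21 ± 0.25 (limma adjusted p = 0.0705), which did not pass. The first of these passed in 6 of 21 alternatives, among them median-of-ratios scaling (-1.44, adjusted p = 0.00800) and the fit without S302A_DEN replicate 3 (adjusted p = 0.0331), and the second in 3 (adjusted p from 0.0194 to 0.309 over its alternatives). The 2 genotypes' DEN effects differed by -1.29 ± 0.36 (limma adjusted p = 0.477).

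Sult1e1, which sulfates estrogens, was near the floor in untreated liver and stood above 4 TPM in 5 of 6 DEN libraries. It stood at 4.24, 30.6 and 6.78 TPM in S302A_DEN, against 1 in all 3 S302A_Ctrl libraries, and at 16.9, 1.17 and 19.2 TPM in WT_DEN, against 1.13, 1 and 1 TPM in WT_Ctrl. The DEN differences, 2.44 ± 0.76 in the knock-in and 2.17 ± 0.76 in wild type, did not pass (limma adjusted p = 0.165 and 0.434) and rest on values at the floor, so they bound no fold. The genotypes' DEN effects differed by 0.27 ± 1.08 (limma adjusted p = 0.989).

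Sult1a1, the main phenol sulfotransferase, stood at 183, 172 and 535 TPM in S302A_DEN, against 162, 289.9 and 144 TPM in S302A_Ctrl, and at 307, 352 and 441 TPM in WT_DEN, against 358, 179 and 186 TPM in WT_Ctrl. All 4 comparisons overlapped. Sult1d1, which in mice sulfates catecholamines, stood at 43.8, 48.9 and 139.9 TPM in S302A_DEN, against 39.9, 56.7 and 36.9 TPM in S302A_Ctrl, and at 87.0, 73.2 and 115.5 TPM in WT_DEN, against 67.2, 48.5 and 63.6 TPM in WT_Ctrl. WT_DEN lay wholly above WT_Ctrl for Sult1d1 (0.60 ± 0.37, limma adjusted p = 0.766). Without S302A_DEN replicate 3, Sult1d1 passed as lower in S302A_DEN than in WT_DEN (-0.95, adjusted p = 0.0382).

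Sult1b1, which sulfates thyroid hormones, ranged from 8.87 to 23.9 TPM, with S302A_DEN at 8.87, 10.1 and 23.9 TPM and WT_DEN at 23.5, 17.2 and 19.7 TPM. Sult5a1 stood at 39.1, 18.9 and 12.1 TPM in S302A_DEN, against 26.8, 26.5 and 51.1 TPM in S302A_Ctrl, and at 8.56, 22.6 and 24.1 TPM in WT_DEN, against 22.7, 16.99 and 34.4 TPM in WT_Ctrl. Both genes overlapped in each comparison.

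**Figure D4:**
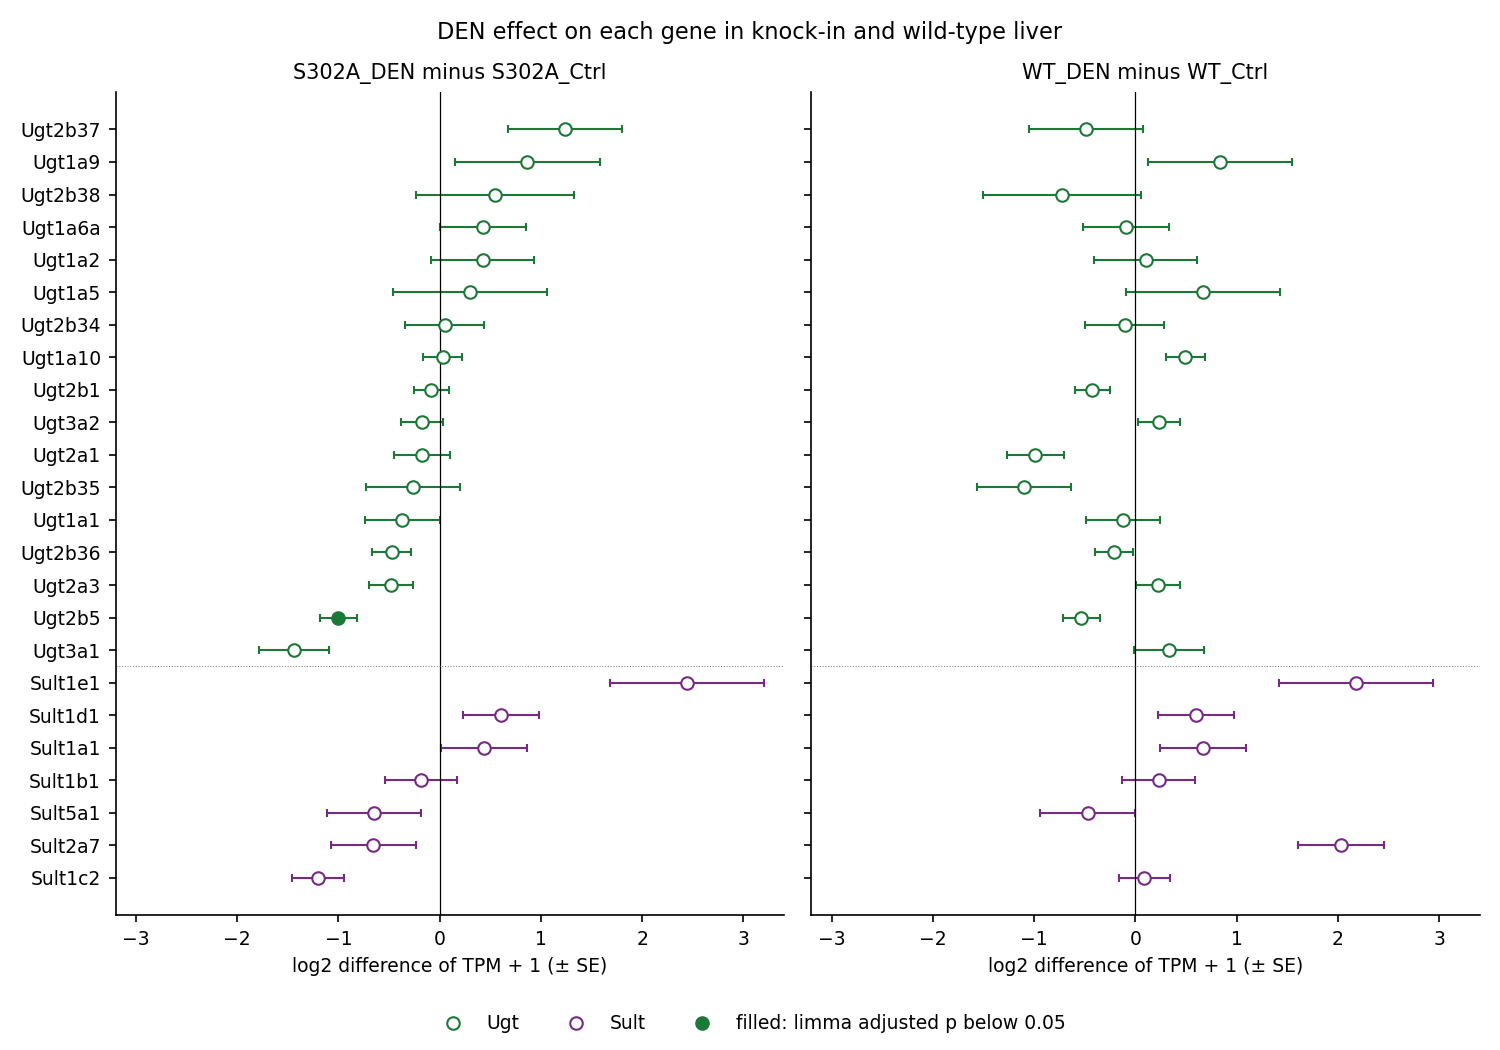
Log2 difference of TPM + 1 (± SE) between DEN and untreated livers for the 24 genes, in the knock-in (left) and wild type (right), with Ugt genes above and Sult genes below the dotted line. Filled points passed limma at an adjusted p below 0.05, which Ugt2b5 did in the knock-in, and Sult2a7 lies at -0.65 in the knock-in and 2.03 in wild type.

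Set against each other, the families lay on opposite sides of 0 after DEN in wild type, and that contrast of families was not tested. After DEN in wild type 6 of 7 Sult genes were higher, with a median log2 difference of 0.60. Of the Ugt genes 7 of 17 were higher, with a median of -0.11, against 70.4% of all genes and a median of 0.13. Sult1e1, among the 6, stood at 1 in 5 libraries, all untreated. It passed the filter through the DEN groups, so its direction was partly set by the filter. A sulfotransferase gene outside the naming rule, 2810007J24Rik, was not counted and differed by -0.36. In the knock-in 3 of 7 Sult genes and 8 of 17 Ugt genes were higher (medians -0.19 and -0.08), against 79.5% of all genes and a median of 0.27. On leaving out 1 library these medians ranged from -0.38 to 0.13 for Sult and from -0.32 to 0.10 for Ugt genes. They lay above 0 without S302A_DEN replicate 1 (0.066 and 0.022), for Ugt genes also without S302A_DEN replicate 2 (0.10), and for Sult genes also without S302A_Ctrl replicate 2 (0.13). Leaving out S302A_DEN replicate 3, 2 of 7 Sult and 4 of 17 Ugt genes were higher, against 50.1% of all genes. Between S302A_DEN and WT_DEN 2 of 7 Sult and 8 of 17 Ugt genes were higher in S302A_DEN (medians -0.50 and -0.19), against 60.1% of all genes and a median of 0.07. When S302A_DEN replicate 3 was left out, 2 of 7 Sult and 3 of 17 Ugt genes were higher (medians -1.002 and -0.45), against 21.3% of all genes and a median of -0.20. Between untreated livers of the 2 genotypes both medians lay near 0, at -0.03 for Sult and -0.05 for Ugt genes, against -0.07 for all genes, and both turned to slightly above 0 (0.02 and 0.04) under median-of-ratios scaling. The 3 Sult genes next to the Ugt2 cluster, Sult1b1, Sult1d1 and Sult1e1, were each higher in WT_DEN than in WT_Ctrl, by 0.23, 0.60 and 2.17, while Ugt2a1 and Ugt2b38 at the near end of the cluster were lower, with differences of -0.99 and -0.73. None of these 5 passed.

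Counted by libraries that do not overlap, 4 of the 24 genes lay wholly above in WT_DEN (Sult1d1, Sult1e1, Sult2a7 and Ugt1a9), as 21.7% of all genes did. Another 4 lay wholly below (Ugt2a1, Ugt2b1, Ugt2b35 and Ugt2b5), as 3.21% did. Sult1e1 passed the filter through the DEN groups, and its closest wild-type values were 1.17 TPM in WT_DEN and 1.13 TPM in WT_Ctrl. In S302A_DEN against S302A_Ctrl 1 lay above (Sult1e1, background 15.8%) and 4 below (Sult1c2, Ugt2b36, Ugt2b5 and Ugt3a1, background 2.68%). In S302A_DEN against WT_DEN 0 lay above (background 3.23%) and 6 lay below, namely Sult1c2, Sult2a7, Ugt1a10, Ugt2a3, Ugt2b5 and Ugt3a1 (background 6.19%). In untreated livers 0 lay above (background 1.69%) and 1, Ugt2b1, lay below (background 5.27%).

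S302A_DEN replicate 3 moved the family in more than one direction. Of the 17 Ugt genes 10 lay above both other S302A_DEN replicates in it and 4 below both (median log2 difference 0.48). Of the 7 Sult genes 4 lay above and 2 below (median 0.11). Over all 12120 genes tested 10539 lay above and 631 below (median 0.79). Ugt2b35, Ugt1a2 and Ugt1a6a were 4.75-fold, 4.58-fold and 4.08-fold above the mean of the other 2, and Ugt1a6a exceeded the highest of the other 11 libraries 3.03-fold. Ugt2b34 was 3.58-fold, Sult1d1 3.02-fold and Sult1a1 3.01-fold above that mean. Ugt3a1 at 10.2 TPM and Ugt2b5 at 367 TPM were the lowest of the 12 libraries in it. Ugdh, whose enzyme makes UDP-glucuronate, stood at 599 TPM in this library, against 84.5 and 69.0 TPM in the other S302A_DEN libraries. Nqo1 and Gclc, markers of the oxidative-stress factor NRF2, stood at 239 and 1448 TPM in it, against 1.79 to 2.34 and 45.8 to 62.8 TPM, and Cyp1a2 stood at 3492 TPM, against 357 and 333 TPM. Ugdh, Nqo1, Gclc and Cyp1a2 were chosen after their values were seen. The part of these values in the Ugt and Sult levels was not tested.

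**Figure D5:**
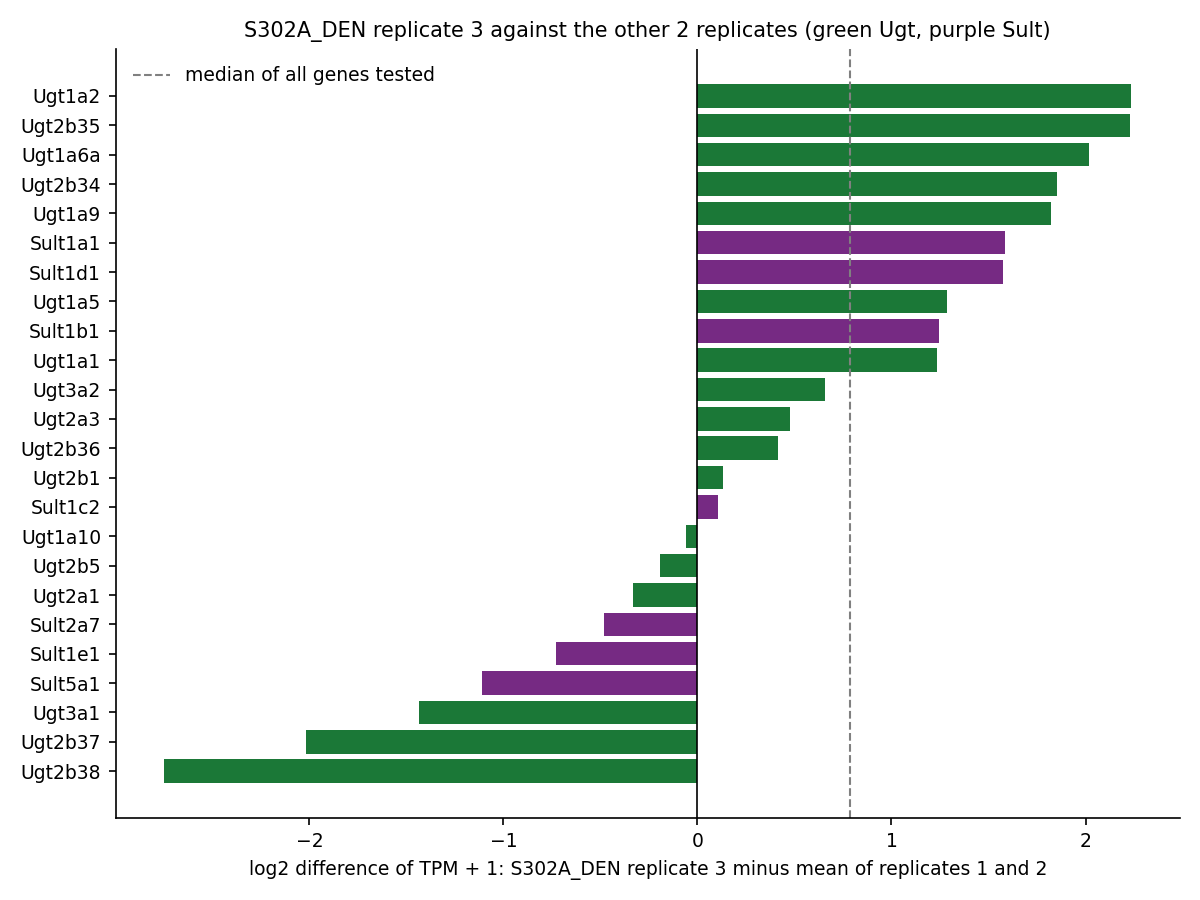
Log2 difference of TPM + 1 between S302A_DEN replicate 3 and the mean of replicates 1 and 2 for each of the 24 genes, with the median of all 12120 genes tested, 0.79, as a dashed line. Ugt1a2 and Ugt2b35 are furthest above 0, at 2.24 and 2.23, and Ugt2b38 is furthest below, at -2.75.

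Without that library more genes of the family passed, and more of all genes did. Between S302A_DEN and WT_DEN 7 of the 24 passed, where 5.89% of all genes did. Of these Sult1c2, Sult1d1, Sult2a7, Ugt2a3, Ugt3a1 and Ugt3a2 were lower in S302A_DEN and Ugt2b37 was higher (1.92, limma adjusted p = 0.0437). After DEN in the knock-in Sult1c2, Ugt2b35 and Ugt2b5 passed as lower, and in wild type Sult2a7 passed as higher and Ugt2b35 as lower.

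The donors and transporters on which both families depend were compared by lists of textbook members. Of 12 genes of PAPS supply and sulfate handling 1 passed, for S302A_DEN against WT_DEN, where 0.38% of all genes did. Papss2, whose enzyme makes PAPS, stood at 21.7, 20.4 and 31.3 TPM in S302A_DEN, against 44.0, 54.5 and 64.5 TPM in WT_DEN, and the groups did not overlap. Its log2 difference was -1.13 (limma adjusted p = 0.0477), and it held in 6 of 21 alternatives (adjusted p from 0.00370 to 0.391). The call ended with a replicate block (0.0543), with no filter (0.230), with robust moderation (0.0527), with the libraries of the comparison alone (0.391), and on leaving out any 1 library other than S302A_DEN replicate 3 (0.0616 to 0.293). Papss1 stood at 9.54 ± 4.60 TPM in S302A_DEN, 4.15 ± 0.531 TPM in S302A_Ctrl and 6.07 ± 1.56 TPM in WT_DEN (SD, n = 3 each), without passing.

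Among 8 genes of UDP-glucuronate supply 0 passed limma in any of the 5 comparisons. At most 2 had an unadjusted p under 0.05, for DEN in the knock-in, where 16.4% of all genes did. Of 7 hydrolases that remove the conjugates 0 passed limma. At most 1 had an unadjusted p under 0.05, for DEN in wild type and in the knock-in (8.26% and 16.4% of all genes). The transporters of conjugates were Abcc2, Abcc3, Abcc6 and Abcg2, and the carriers Slco1a1, Slco1a4, Slco1b2 and Slco2b1. The list is therefore not of exporters alone. Of these 8 transporters 0 passed limma. At most 4 had an unadjusted p under 0.05, for S302A_DEN against WT_DEN, where 7.83% of all genes did. By mean log2(TPM + 1), 0 of 8 were higher in S302A_DEN than in WT_DEN, with a median difference of -0.56, against 60.1% of all genes. The count was again 0 of 8 without S302A_DEN replicate 3 (median -0.82, against 21.3% of all genes). Of the 8, 4 then passed as lower, where 5.89% of all genes passed in either direction. Abcc3, which exports glucuronides into blood, stood at 16.4, 12.8 and 151 TPM in S302A_DEN, against 48.1, 50.5 and 46.3 TPM in WT_DEN, so it was low in 2 S302A_DEN libraries and high in replicate 3. Abcc2, which exports conjugates into bile, stood at 40.2, 35.5 and 184 TPM in S302A_DEN, against 68.7, 61.3 and 66.4 TPM in WT_DEN. By mean TPM, both were higher in S302A_DEN, at 86.4 ± 84.2 TPM for Abcc2 and 60.1 ± 78.8 TPM for Abcc3, than in WT_DEN, at 65.4 ± 3.79 TPM and 48.3 ± 2.11 TPM (SD, n = 3 each). Abcc2 and Abcc3 were chosen after their values were seen.

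Receptors that act on these genes and their marker genes were also listed. Of 15 receptors and factors 0 passed limma. At most 5 had an unadjusted p under 0.05, for DEN in wild type, where 8.26% of all genes did. Nr1i3, the xenobiotic receptor CAR, stood at 45.4, 60.6 and 106 TPM in S302A_DEN, against 182, 223 and 297.5 TPM in WT_DEN (-1.77, limma adjusted p = 0.0632), without overlap. Esr1, the estrogen receptor, averaged 4.39 ± 0.981 TPM in WT_DEN and 1.46 ± 0.366 TPM in WT_Ctrl (SD, n = 3 each, limma adjusted p = 0.0536). Of 17 marker genes of receptor activity, Cyp2b10 and Cyp4a10 passed. Over all genes 0.619% passed for DEN in the knock-in and 0.38% for S302A_DEN against WT_DEN. Cyp2b10, a marker of CAR, stood at 1, 2.33 and 1 TPM in S302A_DEN, against 5.88, 9.30 and 8.02 TPM in S302A_Ctrl and 10.8, 15.1 and 12.1 TPM in WT_DEN. It fell after DEN in the knock-in (-1.86, limma adjusted p = 0.0127) and was lower than in WT_DEN (-2.51, limma adjusted p = 0.00285). The first call ended with no filter (0.0525), with the libraries of the comparison alone (0.0998), and without S302A_Ctrl replicate 2 (0.0544) or 3 (0.0638), and the second with the libraries of the comparison alone (0.0524). Cyp4a10, a marker of the fatty acid receptor PPARα, stood at 1.88, 4.09 and 41.6 TPM in S302A_DEN, against 91.9, 186 and 137 TPM in WT_DEN (-3.97, limma adjusted p = 0.0477). That call held in 6 of 21 alternatives, with adjusted p from 0.000339 to 0.329, and ended with no filter (0.329), with the libraries of the comparison alone (0.214), with robust moderation (0.0853), with a replicate block (0.0596) and on leaving out any 1 library other than S302A_DEN replicate 3 (0.0565 to 0.205).

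Sex-biased genes were listed because several Ugt and Sult genes follow them in mice. Of 19 male-biased genes 0 passed limma in any comparison. At most 6 had an unadjusted p under 0.05, for DEN in the knock-in, S302A_DEN against WT_DEN and the difference in DEN effect. Over all genes these shares were 16.4%, 7.83% and 5.06%. Of the male-biased genes 7 of 19 were higher in S302A_DEN than in S302A_Ctrl (median -0.65), against 79.5% of all genes. Their summed level was 13833 TPM in S302A_DEN replicate 3, against 70133 and 80734 TPM in the other S302A_DEN libraries. It was 35330 to 75629 TPM in WT_DEN, 54789 to 94227 TPM in S302A_Ctrl and 63215 to 94226 TPM in WT_Ctrl. Mup genes weigh heavily in this sum. Mup7 alone stood at 26460, 31799 and 540 TPM in S302A_DEN. Without S302A_DEN replicate 3, 9 of the 19 genes were higher in S302A_DEN than in S302A_Ctrl (median -0.02), against 50.1% of all genes. Of the 9, 2 passed, where 2.43% of all genes passed in either direction. Moxd1, among the 7 and the 9, exceeded 1 TPM only in S302A_DEN (54.6, 50.8 and 1.03 TPM) and WT_Ctrl replicate 2 (15.5 TPM). It passed the filter through S302A_DEN, so its direction was partly set by the filter. Of 19 female-biased genes found, 10 passed the filter and 5 stood at 1 in all libraries. Hao2 exceeded 1 TPM only at 7.71 and 2.03 TPM in WT_DEN and 1.06 TPM in S302A_Ctrl. Cyp2b9 exceeded 1 TPM only at 25.8 and 13.3 TPM in WT_DEN, 2.59 TPM in S302A_Ctrl and 1.93 TPM in WT_Ctrl. The higher levels of Hao2 and Cyp2b9 in WT_DEN were therefore partly set by the filter. Of the 10, 9 were higher in WT_DEN than in WT_Ctrl (median 0.75, against 70.4% of all genes). In S302A_DEN 4 were higher than in WT_DEN (median -0.48, against 60.1%). In each comparison 5 had an unadjusted p under 0.05 (8.26% and 7.83% of all genes). Among them Acot3, an acyl-CoA thioesterase gene, rose in WT_DEN to 13.7 ± 7.18 TPM, against 1.502 ± 0.746 TPM in WT_Ctrl (SD, n = 3 each, limma adjusted p = 0.0351), and was lower in S302A_DEN than in WT_DEN (limma adjusted p = 0.0172). The wild-type call held in 12 of 21 alternatives, with adjusted p up to 0.393, and ended with no filter (0.393), under median-of-ratios scaling (0.0517), with a replicate block (0.0650) and without S302A_Ctrl replicate 3, WT_DEN replicate 2 or 3, or any 1 WT_Ctrl library (0.0505 to 0.192). The other held in 16 of 21 and ended with no filter (0.230), with the libraries of the comparison alone (0.154) and without S302A_DEN replicate 2 or WT_DEN replicate 2 or 3 (0.0705 to 0.110). Of 7 other transferases, such as those for tyrosine sulfation and acetylation, 0 passed limma. At most 3 had an unadjusted p under 0.05, for DEN in wild type, where 8.26% of all genes did. These lists were chosen with earlier results of the same libraries known, so their counts are descriptions.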

How the data were processed

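The deposited files held TPM per gene symbol for 12 mouse liver libraries. Per the submitters' processing notes the authors used kallisto, a pseudoalignment program, with mm10, and its version and the annotation are not given in the sources used here. Per the labels' protocols, libraries were made from total RNA with TruSeq kits. The deposited TPM values had a lowest value of 1 in each file, 17258 symbols stood at 1 in all libraries, and 0 library pairs were identical. Values were analysed as log2(TPM + 1), a pseudocount of 1, with a filter of TPM above 1 in at least 3 libraries, in R 4.3.3 with limma 3.58.1 (1 model of 4 groups, mean-variance trend, 8 residual degrees of freedom). Fold changes on this scale understate those of low genes. Per-library values were planned for genes called in any comparison, the 3 most abundant Ugt and Sult genes, and the 2 of each with the smallest p in each comparison, and further genes were added after the data were seen. Transcripts of GENCODE M21 gave positions and shared runs of 31 bases. The fitting code was tested on simulated data. Other settings tried were pseudocounts (0.1 and 0.5), the filter (none, or TPM of 5 or more), median-of-ratios scaling, quantile normalization, the libraries of a comparison alone, robust moderation, a replicate block and each library left out in turn. The Ugt1a sum, the counts of families and lists without S302A_DEN replicate 3, and the alternatives for Papss2, Cyp2b10, Cyp4a10 and Acot3 were added after the data were seen. Members and lists were chosen with earlier results of these data known.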

Additional observations from a re-analysis of the deposited data

Results flagged for a closer look

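Cyp2b10 differed between the genotypes in its DEN effect, by a test of that difference. The knock-in effect minus the wild-type effect was -2.75 on the log2(TPM + 1) scale (limma adjusted p = 0.0260). Its levels were 1.44 ± 0.769 TPM in S302A_DEN, 7.73 ± 1.73 TPM in S302A_Ctrl, 12.7 ± 2.20 TPM in WT_DEN and 6.404 ± 1.47 TPM in WT_Ctrl (SD, n = 3 each), and 2 of 3 S302A_DEN libraries stood at the floor of 1. The difference passed in 9 of 20 alternatives (adjusted p from 0.00945 to 0.175). It ended with no filter, under median-of-ratios scaling or quantile normalization, and without S302A_DEN replicate 1, S302A_Ctrl replicate 2 or 3, WT_Ctrl replicate 1 or 2, or any 1 WT_DEN library (0.0550 to 0.109 over these libraries). No Ugt or Sult gene passed that test.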

How the results depend on the processing

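The count of Ugt and Sult genes that passed limma moved with several choices. For DEN in wild type (0 with all libraries) it was 1 with the libraries of the comparison alone and 0 to 2 on leaving out 1 library. For DEN in the knock-in (1) it was 2 with a pseudocount of 0.1, a filter of TPM at least 5 or robust moderation, 5 under median-of-ratios scaling, 4 under quantile normalization, 0 with no filter or the libraries of the comparison alone, and 0 to 3 on leaving out 1 library. For S302A_DEN against WT_DEN (1) it was 2 under median-of-ratios scaling or quantile normalization, 0 with no filter or the libraries of the comparison alone, and 0 to 7 on leaving out 1 library. Over all genes, median-of-ratios scaling moved the share that passed from 0.619% to 5.37% for DEN in the knock-in. For S302A_DEN against WT_DEN that share moved from 0.38% to 1.73%. With the libraries of the comparison alone the shares were 1.28%, 0.149% and 0.0346%, in the order above. Leaving out S302A_DEN replicate 3 gave the 2, 3 and 7, where 2.17%, 2.43% and 5.89% of all genes passed. It also moved the Sult medians to -1.002 for S302A_DEN against WT_DEN and -0.76 for the difference in DEN effect, whose ranges over left-out libraries were -1.002 to -0.25 and -0.76 to -0.052. Median-of-ratios scaling moved the median of all genes for DEN in the knock-in to 0.0052, against 0.27 without it, and the Ugt and Sult medians to -0.32 and -0.49. The other medians moved by less than the SD between replicates of the median level per library (Ugt 0.53, Sult 0.42). That SD describes levels, not differences between groups. For Ugt genes it was 0.96 in S302A_DEN, which holds replicate 3, and 0.17 to 0.37 in the other groups. Some medians ranged across 0 over left-out libraries. For DEN in the knock-in the ranges were -0.32 to 0.10 (Ugt) and -0.38 to 0.13 (Sult). For the Ugt genes they were -0.45 to 0.096 for S302A_DEN against WT_DEN and -0.42 to 0.33 for the difference in DEN effect. For the Sult genes in untreated livers the range was -0.081 to 0.054. Both medians in untreated livers and the Ugt median of the difference in DEN effect (to -0.10) also changed sign under median-of-ratios scaling. The counts for untreated livers and for the difference in DEN effect were 0 throughout. The summed Ugt1a difference reversed to -0.40 for DEN in the knock-in without S302A_DEN replicate 3 (range over left-out libraries -0.40 to 0.50) and to 0.065 for the difference in DEN effect without S302A_DEN replicate 2 (range -0.83 to 0.065). The cause of these moves was not tested. With a replicate block the counts were 0, 1, 0, 1 and 0, as without it. Whether replicate numbers pair the samples could not be told from correlations between libraries of different groups, taken after removing group means. The 18 same-numbered pairs had correlations of -0.19 to 0.28 (median 0.061), with 5 over 0.1. The 36 pairs with other numbers had -0.23 to 0.26 (median -0.023), with 5 over 0.1. The libraries of a comparison alone give no value for the difference in DEN effect. Unknown depth, values at 1 and 3 libraries per group limit the precision, and low genes such as Ugt2b37, Ugt2b38 and Sult2a7 are the least certain.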

Other observations

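One sulfotransferase gene lies outside the naming rule because the files list it as 2810007J24Rik, which RefSeq gives as a synonym of Sult2a8, a bile acid sulfotransferase gene of mouse liver. It stood at 327, 257 and 68.1 TPM in S302A_DEN, against 624, 496 and 540 TPM in S302A_Ctrl, and at 391, 421 and 521 TPM in WT_DEN, against 583, 524 and 600 TPM in WT_Ctrl. Its level was therefore above that of every listed Sult gene in 11 of the 12 libraries. All S302A_DEN libraries lay below all other libraries, and S302A_DEN replicate 3 was the lowest. The log2 difference was -1.61 ± 0.43 against S302A_Ctrl (SE, limma adjusted p = 0.109), -1.29 ± 0.43 against WT_DEN (limma adjusted p = 0.331) and -0.36 ± 0.43 for DEN in wild type (limma adjusted p = 0.928), none of which passed.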
